A study of Mus musculus with 6 samples.

Results

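The genes described here are 9 serpin genes chosen by name for macrophages: Serpina3f, Serpina3g, Serpinb1a, Serpinb2, Serpinb6a, Serpinb6b, Serpinb8, Serpinb9 and Serping1. All 9 were found among the 54532 genes of the deposited table, which lists 68 genes with a serpin symbol in all. Their RNA was measured by bulk RNA sequencing in 3 control and 3 SAHH-KO libraries of mouse macrophages, in FPKM, the fragments assigned to a gene per kilobase of its length, scaled to library size. The labels describe macrophages drawn from the peritoneum 4 days after thioglycollate, then purified by adherence for 6 h. Both groups received interferon-γ at 2 ng/mL with lipopolysaccharide at 10 ng/mL for 8 h, so every level below is one in stimulated cells. The control cells are named shControl in the titles and WT in the genotype field, and the other cells SAHH-KO and SAHH knockdown, so how the enzyme was lowered is not settled by the labels. Strain, sex and age of the mice, and whether the replicates are separate animals or cultures, are not given in the sources used here, and p-values measure the spread between these libraries, which may be technical.

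Serpins are protein inhibitors of proteases. A serpin offers its target an exposed loop as bait, and once the protease cuts it, the serpin changes shape and holds the protease in a covalent, inactive complex. Clade A serpins are mostly secreted, clade B serpins lack a classical signal peptide and act mainly inside the cell, and C1 inhibitor, the product of Serping1, is a plasma protein. In macrophages serpins limit urokinase, granule serine proteases and leaked lysosomal cathepsins, and several of them are known as genes induced by interferon or lipopolysaccharide.

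SAHH, S-adenosylhomocysteine hydrolase, is encoded by Ahcy, which read 25.8, 22.6 and 24.4 FPKM in control, against 5.51, 5.50 and 6.23 FPKM in SAHH-KO. This check is limited by shared sequence, since 66% of the 50-base words of Ahcy transcripts also occur in Gm4737, which fell as well (66.2 ± 2.51 to 17.96 ± 2.50 FPKM, SD, n = 3), and 30.2% occur in Gm9826, at 0.491 ± 0.267 and 0.145 ± 0.0823 FPKM. Reads assigned to genes ranged from 15540442 to 17748745 over the libraries. Of 12 macrophage markers 8 passed the filter on low values, of which 4 were higher and 0 lower, beside 26.4% and 26.8% of all genes tested. The list summed to 8345 to 8646 FPKM in control, against 9322 to 10590 FPKM in SAHH-KO. Most of that sum was Lyz2, at 5653 ± 144 FPKM in control, against 6616 ± 708 FPKM in SAHH-KO. Lyz2 was not called (limma adjusted p = 0.0670). Gata6 and Timd4, which mark resident peritoneal macrophages, had 0 reads. Lists of 6 to 11 markers for neutrophils, B cells, T cells, NK cells, mast cells, eosinophils, dendritic cells and mesothelial or fibroblast cells gave 3 tested genes in all, S100a8, Hdc and Itgax, of which Hdc rose from 5.53 ± 0.528 to 18.3 ± 1.75 FPKM.

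The upstream windows of 5 of these genes from RefSeq (GRCm38.p6, gene strand) are printed first, because they set beside each other genes that were close to absent, a gene that was steady, a gene that fell and a gene whose groups overlapped. Each holds the 250 bases before the annotated start. Capitals mark matches to the γ-activated site TTCNNNGAA, to the core of the interferon-stimulated response element (GAAA, any 2 bases, GAAA, on either strand), and to the κB site.
Serpina3f, chr12:104214294-104214543, plus strand: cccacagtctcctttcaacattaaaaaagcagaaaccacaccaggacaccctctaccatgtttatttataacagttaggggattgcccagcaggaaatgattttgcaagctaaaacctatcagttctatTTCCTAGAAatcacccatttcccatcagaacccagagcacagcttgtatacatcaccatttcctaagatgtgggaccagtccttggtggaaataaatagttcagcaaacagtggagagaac
Serpina3g, chr12:104235897-104236146, plus strand: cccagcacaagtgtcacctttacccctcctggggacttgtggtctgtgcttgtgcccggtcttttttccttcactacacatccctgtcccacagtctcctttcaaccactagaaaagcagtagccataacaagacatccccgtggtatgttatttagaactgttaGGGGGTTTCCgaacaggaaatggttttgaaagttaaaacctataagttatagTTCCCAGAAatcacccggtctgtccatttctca
Serpinb6a, chr13:34002795-34003044, minus strand: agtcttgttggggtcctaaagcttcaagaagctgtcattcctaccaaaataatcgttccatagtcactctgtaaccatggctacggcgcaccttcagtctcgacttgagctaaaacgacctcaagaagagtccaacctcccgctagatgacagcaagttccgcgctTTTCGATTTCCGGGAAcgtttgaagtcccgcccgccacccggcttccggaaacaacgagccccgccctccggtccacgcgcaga
Serpinb9, chr13:33004291-33004540, plus strand: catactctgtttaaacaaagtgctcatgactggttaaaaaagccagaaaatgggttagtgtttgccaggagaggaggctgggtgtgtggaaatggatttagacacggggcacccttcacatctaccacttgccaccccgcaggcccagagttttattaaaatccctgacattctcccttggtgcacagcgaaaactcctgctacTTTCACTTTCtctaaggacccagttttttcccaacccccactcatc
Serpinb2, chr1:107511173-107511422, plus strand: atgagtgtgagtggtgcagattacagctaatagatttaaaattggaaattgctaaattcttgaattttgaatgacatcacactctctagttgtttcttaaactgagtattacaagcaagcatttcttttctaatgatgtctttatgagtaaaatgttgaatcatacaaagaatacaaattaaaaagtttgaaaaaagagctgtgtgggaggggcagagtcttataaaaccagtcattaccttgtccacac

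The windows of Serpina3f and Serpina3g each held 1 γ-activated site, TTCCTAGAA from base -121 to -113 and TTCCCAGAA from base -33 to -25 before the start, and that of Serpina3g also held a κB match. The window of Serpinb6a held a γ-activated site, TTCCGGGAA, that shares bases with a match to the response element core, and the window of Serpinb9 held 1 match to that core. The windows of Serpinb2, Serpinb6b and Serpinb8 held none of the motifs. RefSeq has 2 windows each for Serpina3f, Serpinb2 and Serpinb6a. Only the window nearest the start in the deposited table was read, so the other was not searched for motifs or CpG. Of 32817 mouse windows of this length, 7.01% held a γ-activated site, 2.97% the response element core and 7.25% a κB match. CpG dinucleotides numbered 20 in the window of Serpinb6a, 4 in Serpina3g, 3 each in Serpinb6b and Serpinb9, 2 in Serpinb8 and 0 in Serpina3f and Serpinb2, against a median of 6 over all windows. The start used by RefSeq lies 1291 bases from that of the deposited table for Serpinb9 and 98 bases for Serpina3g. RefSeq windows matched 7 of the 9 genes, all but Serpinb1a and Serping1. A match describes letters in a window and not a site in use.

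Levels of the 9 genes spanned from no read to over 100 FPKM, and 4 of the 9 were close to absent in both groups. In control the order was Serpinb2, Serpinb6a, Serpinb6b, Serpinb9 and Serpinb8, and the values of neighbours in that order did not overlap. In SAHH-KO Serpinb6a stood first and Serpinb2 second, and the values of Serpinb2 overlapped those of Serpinb6b, the next in the order. Genes were tested where at least 3 of the 6 libraries reached 1 FPKM, which 5 of the 9 did and 10362 genes did in all.

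**Figure D1:**
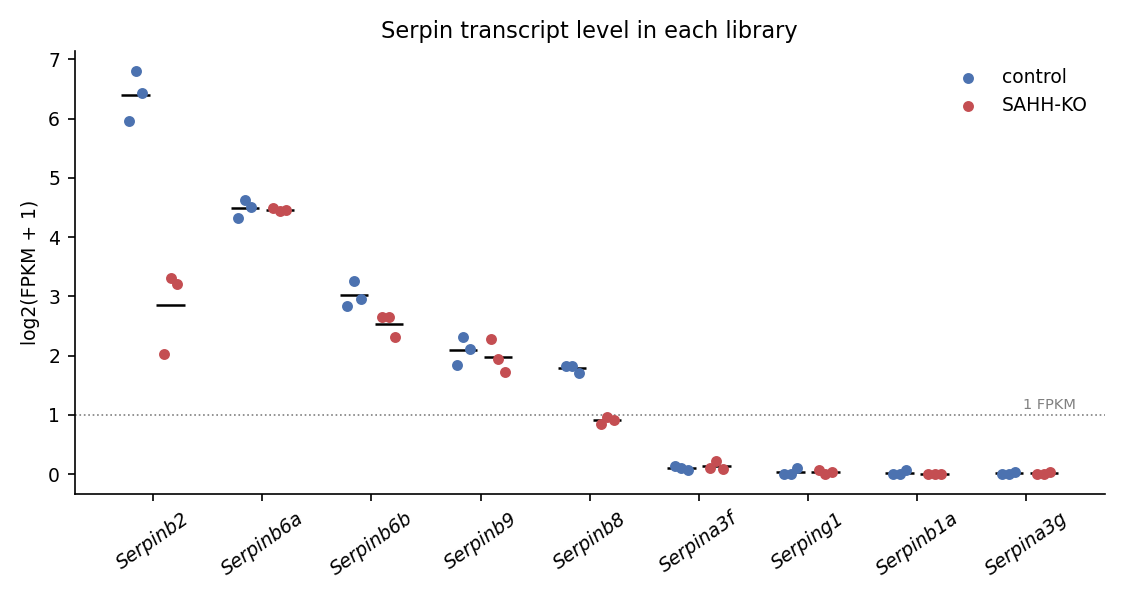
Transcript level of the 9 serpin genes, as log2(FPKM + 1), in 3 control (blue) and 3 SAHH-KO (red) libraries, each point a library and each black line a group mean. Serpinb2 lay between 61.1 and 111 FPKM in control, against between 3.10 and 8.89 FPKM in SAHH-KO, Serpinb6a stayed near 21 FPKM, and 4 genes reached at most 0.172 FPKM.

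Of the 5 genes tested, 3 were lower in SAHH-KO, Serpinb2, Serpinb8 and Serpinb6b, and 0 were higher (limma, Benjamini-Hochberg adjusted p under 0.05). Of all genes tested 53.3% were called, 26.8% lower and 26.4% higher, so a called gene is common in this comparison. With TPM 3894 genes were lower and 2006 higher, against 2782 and 2736. The control values lay wholly above the SAHH-KO values for the same 3 genes, which held for 31.6% of all genes tested, and 62.3% had no overlap in either direction. Among these genes Serpinb8 had to lie apart, since it passed the filter through the control libraries alone. The median log2 change was -0.48 over the 5 genes and -0.01 over all genes tested.

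Serpinb2 had the largest change of the 9. It encodes an intracellular inhibitor of urokinase that macrophages make in quantity after lipopolysaccharide. The gene (ENSMUSG00000062345, protein-coding, chromosome 1, bases 107511423 to 107535478 of GRCm38, plus strand) read 61.1, 111 and 84.8 FPKM in the control libraries and 3.10, 8.89 and 8.27 FPKM in SAHH-KO. Every control library lay above every SAHH-KO library, with SAHH-KO replicate 1 the lowest of all. The mean fell 12.7-fold, from 85.5 ± 24.8 to 6.75 ± 3.18 FPKM (SD, n = 3). On the log2(FPKM + 1) scale, which all log2 changes here use, the change was -3.54 (SE 0.338, limma adjusted p = 6.43e-05). It ranked 2 from the lowest among the 10362 genes, and 17 with a pseudocount of 0.1 in place of 1. These values rest on 10222 reads in control, against 738 in SAHH-KO. Of the exon bases of Serpinb2, 12.4% belong also to Serpinb10, a neighbour on the same strand annotated as a polymorphic pseudogene. Serpinb10 itself had 49 reads in control, against 7 in SAHH-KO, and reads from the shared bases were not counted apart.

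Beside the fall of Serpinb2, S100a8, a gene of neutrophils and activated myeloid cells, fell from 4.63 ± 0.486 to 0.189 ± 0.251 FPKM (limma adjusted p = 1.09e-05). S100a8 passed the filter on low values through the control libraries alone, and a gene that does so has to differ. Of the other neutrophil markers Ly6g, S100a9, Mpo, Ltf, Ngp, Retnlg and Cxcr2 had 0 reads, and Camp read 0.521 and 0.415 FPKM on average. The summed level of the 10 neutrophil markers was 4.76 to 5.66 FPKM in control, against 0.503 to 0.820 FPKM in SAHH-KO. In control most of that sum was S100a8. In bulk RNA, fewer cells with a transcript and less of it per cell cannot be told apart.

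Serpinb8, known as an inhibitor of the proprotein convertase furin, was low and fell 2.80-fold. It read 2.55, 2.53 and 2.27 FPKM in control, against 0.802, 0.945 and 0.881 FPKM in SAHH-KO, so the groups stood well apart with little spread inside either. The log2 change was -0.88 (SE 0.0949, limma adjusted p = 0.000125), and at this low level its size depends on the pseudocount, being -1.39 with 0.1 in place of 1. Serpinb8 passed the filter through the control libraries alone, and a gene that does so has to differ. Without that filter the same libraries gave the same log2 change (limma adjusted p = 0.00195), so that fit is no separate support. The gene (ENSMUSG00000026315) lies downstream of Serpinb2 on chromosome 1, bases 107590006 to 107610484. Furin itself read 45.5 ± 9.75 FPKM in control, against 54.2 ± 6.26 FPKM in SAHH-KO (log2 change 0.26, limma adjusted p = 0.177), and was called higher without control replicate 1 (0.42, limma adjusted p = 0.0145).

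Serpinb6b and Serpinb6a, paralogues on chromosome 13, differed in how they stood between the groups. Serpinb6b (ENSMUSG00000042842, bases 32965209 to 32979067) read 6.18, 8.52 and 6.80 FPKM in control, against 5.29, 5.29 and 3.99 FPKM in SAHH-KO. The groups did not overlap, and the mean fell from 7.17 ± 1.22 to 4.86 ± 0.747 FPKM (log2 change -0.48, SE 0.136, limma adjusted p = 0.0177). This call was lost without SAHH-KO replicate 3 (-0.37, limma adjusted p = 0.0662) and without the filter on low values (limma adjusted p = 0.0681).

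Serpinb6a, an inhibitor of cathepsin G and trypsin-like proteases, was the steadiest of the tested genes. The gene (ENSMUSG00000060147, chromosome 13, bases 33917918 to 34002794, minus strand) read 19.0, 23.7 and 21.7 FPKM in control, against 21.5, 20.7 and 20.9 FPKM in SAHH-KO. The SAHH-KO values all lay inside the control range. The log2 change was -0.02 with a 95% interval from -0.24 to 0.19 (limma adjusted p = 0.854), so a rise or fall of up to about that size is not excluded. With values rescaled to TPM it was -0.184 (limma adjusted p = 0.126). Scaled by assigned reads it was -0.177 (limma adjusted p = 0.14), so the value near 0 holds for the deposited scaling. The level carries a limit of annotation: 14.1% of its exon bases overlap those of Nqo2, 10.8% those of 1110046J04Rik and 4.46% those of Ripk1, all on the opposite strand, and the sources used here do not say whether counting used strand. Nqo2 fell from 6.53 ± 1.02 to 4.20 ± 0.299 FPKM in the same libraries (limma adjusted p = 0.00538). Whether the difference between Serpinb6a and Serpinb6b exceeds their spread was not tested.

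Serpinb9, the intracellular inhibitor of granzyme B, was not called either. It read 2.58, 3.98 and 3.31 FPKM in control, against 3.87, 2.84 and 2.31 FPKM in SAHH-KO, and the groups overlapped over most of their range. The log2 change was -0.11 (95% interval -0.49 to 0.28, limma adjusted p = 0.628), an interval that still admits moderate changes both ways. Serpinb9 (ENSMUSG00000045827, chromosome 13, from base 33003250 to base 33017957) has 0.378% of its 50-base words in common with other genes.

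**Figure D2:**
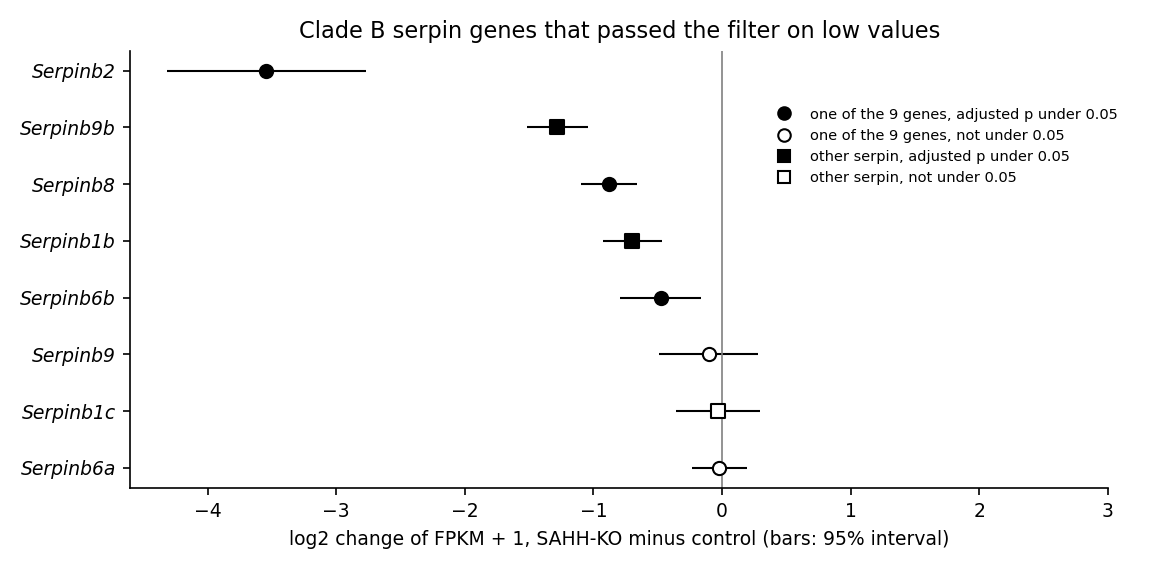
Log2 change of FPKM + 1 in SAHH-KO against control for the 8 clade B serpin genes that passed the filter, with 95% intervals from limma; circles are the genes described here and squares other clade B serpins, filled where the adjusted p was under 0.05. Serpinb2 (-3.54) stands farthest from 0, and Serpinb9, Serpinb1c and Serpinb6a straddle 0.

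The other 4 genes were not tested. Serpina3g, also known as an intracellular inhibitor of cysteine cathepsins that interferon-γ induces in macrophages, had 1 read in control replicate 3, 1 read in SAHH-KO replicate 3 and 0 in the other libraries. Its neighbour Serpina3f had 4, 3 and 2 reads in control, against 3, 6 and 2 reads in SAHH-KO. Summed over a group, that is 0.0770 FPKM in control (exact Poisson 95% interval 0.0352 to 0.146) and 0.102 FPKM in SAHH-KO (0.0507 to 0.182), intervals that cover counting error only and overlap. Of the 14 Serpina3 genes and pseudogenes in the table these were the 2 with any read. The copies resemble each other, and 15.5% of the 50-base words of Serpina3g and 10.6% of those of Serpina3f occur in another gene, and how counting treated reads with several matches was not tested.

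Serping1, the inhibitor of the complement proteases C1r and C1s and of plasma kallikrein, had 3 reads in each group, which puts its level at or below 0.0739 FPKM in control, against 0.0798 FPKM in SAHH-KO (upper exact Poisson 95% bounds). Serpinb1a, an inhibitor of neutrophil elastase, cathepsin G and proteinase 3, had 2 reads in control, against 0 in SAHH-KO, where the upper bound is 0.0339 FPKM. A difference between the groups was not detectable at this depth for any of the 4. For these genes 3 reads, taken as the floor, were worth 0.0722 to 0.0936 FPKM per library.

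Of the C1 and contact proteases that Serping1 restrains, C1ra rose. Its level went from 2.62 ± 0.338 to 8.94 ± 0.870 FPKM (log2 change 1.46, limma adjusted p = 1.54e-05). It was the 1 tested gene of 15 in that list. C1s1, the protease that C1r activates, reached at most 0.0576 FPKM in a library, and Masp1, Klkb1 and F12 had 0 reads.

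Other genes of clades A and B were read for comparison. Of the 49 such genes, 3 reached a mean of 1 FPKM in a group, Serpinb9b, Serpinb1c and Serpinb1b, and all 3 were tested. Serpinb9b fell from 5.18 ± 0.373 to 1.55 ± 0.226 FPKM (log2 change -1.28, limma adjusted p = 2.38e-05). Serpinb1b fell from 1.26 ± 0.0227 to 0.393 ± 0.0664 FPKM (limma adjusted p = 0.000575), a gene that passed the filter through the control libraries alone. Serpinb1c read 2.02 ± 0.561 and 1.92 ± 0.138 FPKM (limma adjusted p = 0.872). Over clade B 5 of 8 tested genes were lower and 0 higher, beside 26.8% and 26.4% of all genes tested, and 2 of the 5, Serpinb8 and Serpinb1b, had to differ because they passed the filter through control alone. With Serping1 the 2 clades hold 58 genes, of which 40 had 0 reads in all libraries, and of 29 clade A genes 27 had no read.

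Serpinb2 led the summed level of these genes in control and Serpinb6a led it in SAHH-KO. Since FPKM is per kilobase of gene, levels of different genes can be added and compared. The 9 genes summed to 91.4 to 149.5 FPKM in the control libraries, and in SAHH-KO to 34.6 to 38.9 FPKM, and most of that difference is Serpinb2. Of this sum Serpinb2 made up 70.7% ± 3.64 in control and 18.2% ± 7.99 in SAHH-KO (SD, n = 3). Serpinb6a made up 18.3% ± 2.43 and 57.5% ± 4.31, while its own level stayed near 21 FPKM. The 58 genes of both clades with Serping1 summed to 99.8 to 159.8 FPKM in control, of which the 9 genes hold most, and to 38.6 to 42.7 FPKM in SAHH-KO.

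**Figure D3:**
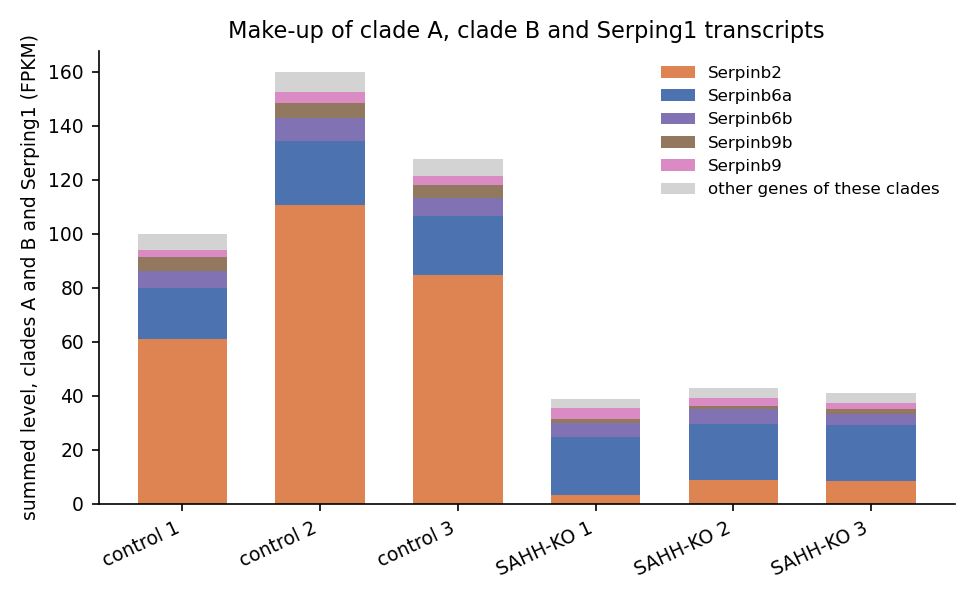
Summed level of the clade A and clade B serpin genes and Serping1 in each library, in FPKM from 0, with 5 genes in colour and the remaining genes in grey. Serpinb2 (orange) makes up 61.2% to 69.3% of the bar in the control libraries and Serpinb6a (blue) 48.6% to 55.6% in the SAHH-KO libraries.

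Other genes of plasminogen activation moved less than Serpinb2. Of the 11 listed genes, which include Serpinb2, 6 were tested, 2 were higher and 3 lower, beside 26.4% and 26.8% of all genes tested. Plau, which encodes urokinase, fell from 24.5 ± 1.44 to 18.7 ± 1.26 FPKM (log2 change -0.37, limma adjusted p = 0.00618). Its receptor gene Plaur read 224 ± 25.4 and 192 ± 23.1 FPKM (log2 change -0.23, limma adjusted p = 0.137). Of the genes for proteins that bind plasminogen at the cell surface, S100a10 fell from 237 ± 27.5 to 144 ± 8.99 FPKM (limma adjusted p = 0.000549), and Anxa2, whose product pairs with that of S100a10, rose from 144 ± 6.12 to 179 ± 8.92 FPKM (limma adjusted p = 0.00760). The rises of Anxa2 and Plgrkt, a plasminogen receptor gene, were not called with values rescaled to TPM (adjusted p = 0.0921 and 0.171) or scaled by assigned reads, where Plaur was called lower (adjusted p = 0.0290 with TPM). The call of Plgrkt was also lost without control replicate 1 or 3 or any 1 SAHH-KO library (adjusted p = 0.0595 to 0.110). The median log2 change of all genes tested was -0.01 as deposited, -0.16 with TPM and -0.14 with assigned reads, against which small changes should be judged.

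Among the lysosomal cysteine proteases and their cystatin inhibitors, which the intracellular serpins face when lysosomes leak, 10 of 11 were tested, 4 were higher and 3 lower. These counts stand beside 26.4% higher and 26.8% lower among all genes tested. Ctsk, a collagen-degrading cathepsin, fell 4.30-fold, from 102 ± 4.94 to 23.7 ± 4.03 FPKM (limma adjusted p = 4.26e-06), and Ctsf rose 4.23-fold, from 5.55 ± 0.749 to 23.5 ± 2.23 FPKM (limma adjusted p = 4.73e-06). Ctsc, which activates granule serine proteases, fell 2.57-fold. Ctsb, which encodes cathepsin B, read 764 and 734 FPKM on average (limma adjusted p = 0.503), and was called lower with values rescaled to TPM (limma adjusted p = 0.0196). The secreted inhibitor gene Cst3 rose 1.60-fold, and its cytosolic relative Cstb fell 1.43-fold.

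The serine proteases that Serpinb9, Serpinb6a and Serpinb1a are known for were close to absent. Of 18 genes of the granule list 14 had 0 reads, among them Gzmb, Ctsg and Prf1, and Elane and Prtn3 reached at most 0.0660 and 0.129 FPKM in a library. The tested gene of that list was Srgn, the granule proteoglycan, at 119 ± 16.3 and 152 ± 1.80 FPKM (limma adjusted p = 0.0197), a call that was lost without any 1 of the SAHH-KO libraries (limma adjusted p = 0.0530 to 0.0581) and with TPM (0.127). Of the other known or proposed targets 6 of 11 were tested, 3 were higher and 0 lower, beside 26.4% and 26.8% of all genes tested, and the 3 were caspase genes. With TPM or with scaling by assigned reads F10 and St14, a coagulation factor gene and a membrane serine protease gene, were called lower as well (limma adjusted p = 0.0423 and 0.0377 with TPM). Casp1 rose 1.73-fold, Casp4 2.53-fold and Casp8 1.49-fold (limma adjusted p = 0.00414, 0.000119 and 0.000843).

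The position of the genes was compared next. Clade B serpins lie in a cluster of 16 genes over 1161 kb on chromosome 13 and in another of 12 genes over 749 kb on chromosome 1. On chromosome 1 the 2 tested genes, Serpinb2 and Serpinb8, were both lower. On chromosome 13, 3 of 6 tested genes were lower, Serpinb6b, Serpinb9b and Serpinb1b. Between Serpinb6b and Serpinb9b lies Serpinb9, which was not called. Both counts stand beside 26.8% lower among all genes tested. Serpinb8 and Serpinb1b had to differ, because they passed the filter through the control libraries alone. The nearest tested genes outside the clusters, chosen after the serpin values were seen, lay 64 kb (Vps4b), 19 kb (Wrnip1) and 35 kb (Bphl) away, and on the far side of the chromosome 1 cluster the nearest, Dsel, lay 4248 kb away, too far to stand as a close neighbour. On chromosome 1 Vps4b was lower (log2 change -0.24, limma adjusted p = 0.0443) and Dsel higher (0.54, limma adjusted p = 0.00180), and on chromosome 13 Wrnip1 was lower (-0.61, limma adjusted p = 0.000839) and Bphl higher (0.69, limma adjusted p = 0.00351). Ripk1, which overlaps the end of the chromosome 13 cluster, was not called (-0.17, limma adjusted p = 0.118). Nqo2, inside that cluster, was lower (-0.53, limma adjusted p = 0.00538).

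**Figure D4:**
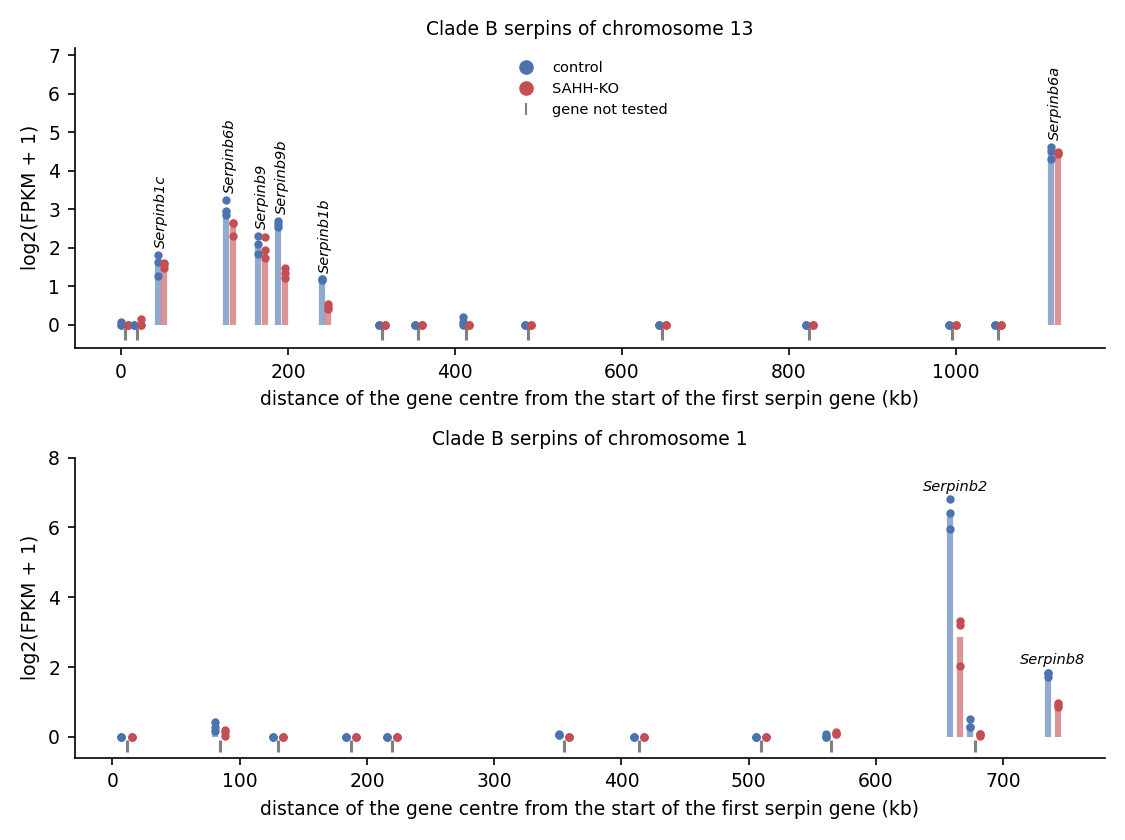
Level of each clade B serpin gene, as log2(FPKM + 1), against the distance of its centre from the start of the first serpin gene of the cluster in kb, for chromosome 13 (upper) and chromosome 1 (lower); bars are group means and points libraries, control blue and SAHH-KO red, drawn side by side, and grey ticks mark genes not tested. Serpinb2 has the tallest control bar, and most genes of both clusters lie at or near 0.

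Similarity of course over the 6 libraries was measured by the Euclidean distance of log2(FPKM + 1) values, each gene centred on its own mean. The nearest genes were looked for among tested protein-coding genes, leaving out serpins, predicted genes and clone names. For Serpinb2 they were Fabp4, a lipid chaperone of macrophages (distance 1.08, 14.4 ± 1.28 to 0.487 ± 0.130 FPKM), and Rrm2, a subunit of ribonucleotide reductase (distance 1.09). For Serpinb8 they were Slc16a6 (distance 0.0926, 11.4 ± 0.248 to 5.54 ± 0.310 FPKM) and Man1a (distance 0.103, 3.44 ± 0.204 to 1.37 ± 0.115 FPKM). For Serpinb6b they were Psmg2 and Mrps36 (distances 0.120 and 0.132), for Serpinb9 Commd3 and Yaf2 (0.204 and 0.207), and for Serpinb6a Spcs2 and Ccdc66 (0.0339 and 0.0498). With 2 groups of 3 libraries such distances mostly reflect the size of the group difference.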

How the data were processed

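RNA-seq of 3 control and 3 SAHH-KO libraries was analysed from 1 deposited table of FPKM values. Per the submitters' processing notes, the authors used FastQC, Trim Galore, STAR and featureCounts with the builds GRCm38 and mm10. Versions, strand use and the way counts became FPKM are not given in the sources used here. FPKM times gene length came out as whole multiples of 1 step in 100% of values above 0 (within 0.01 of a read), which gave the reads per gene. The step also gave the library size used in the scaling. That size was 1.0545 to 1.0721 times the assigned reads in control, against 0.9373 to 0.9599 times in SAHH-KO. The deposited scaling thus differed between the groups from a scaling by assigned reads. The spans of the genes described equal those of GENCODE M21.

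Genes with at least 1 FPKM in at least 3 of 6 libraries were tested with limma 3.58.1 in R 4.3.3 (lmFit, eBayes with trend) on log2(FPKM + 1), no covariates, two-sided tests and Benjamini-Hochberg adjustment over all 10362 genes and a threshold of 0.05. The fit was tested on simulated data. Folds are ratios of group means in FPKM. Poisson intervals and floors cover counting error only. A count model planned in case the table held raw counts was not used. No pair of libraries was identical, and equally numbered libraries did not deviate together in every pair (r = 0.0955, 0.101 and -0.00556), so the fit has no block. The genes and lists were chosen with earlier results of these data known. Named are the 9 genes, other clade A and B serpins with a mean of at least 1 FPKM, up to 4 called genes of each list, the 2 nearest profiles, Ahcy, and genes sharing at least 25% of 50-base words; others were chosen after their values were seen. Amino acid sequences were not used here, and 1 item is not reported here. Alternatives are given in the closing section.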

Additional observations from a re-analysis of the deposited data

How the results depend on the processing

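In 13 alternative settings, 1 of them (limma's voom weights on the recovered reads) chosen after the data were seen, 92 of 99 log2 changes of the 8 tested clade B serpins kept their direction and their side of the threshold. Serpinb2 ranged over leave-one-out fits from -3.77 to -3.13 and was called in each. Serpinb8 was -1.39 with a pseudocount of 0.1, -1.33 with TPM and -1.48 with voom weights, against -0.88, and Serpinb1b -1.47, -1.23 and -1.65 against -0.70. Serpinb6b was lost without the filter on low values (-0.48, adjusted p = 0.0681) and without SAHH-KO replicate 3 (-0.37, adjusted p = 0.0662). Among genes that were not called, signs turned (leave-one-out ranges -0.106 to 0.0496 for Serpinb6a, -0.256 to 0.0239 for Serpinb9 and -0.180 to 0.0932 for Serpinb1c) without control replicate 2 for Serpinb6a (0.0496), Serpinb9 (0.00884) and Serpinb1c (0.0932), for Serpinb9 without SAHH-KO replicate 3 (0.0239), and for Serpinb1c without SAHH-KO replicate 1 (0.00841). With a mean of at least 5 FPKM required, fewer genes were tested, and 2 serpins and 1850 genes were lower, against 5 and 2782. With TPM, and with scaling by assigned reads, 0 plasminogen genes were higher (2 before), 0 granule genes were higher (1 before) and 2 other serpin targets, F10 and St14, were lower (0 before), and over all genes 2006 and 2033 were higher and 3894 and 3905 lower. Without the filter 1 plasminogen gene, 2 C1 and contact genes and 0 granule genes were higher, and leaving out 1 library gave 1 to 2 plasminogen and 0 to 1 granule genes. With the replicate block 5490 genes were called against 5518 and no call of a tested serpin changed, while Furin was called higher (adjusted p = 0.0477); 2 of the 3 control libraries correlated best with the SAHH-KO library of their own number. Count-based tests planned for whole reads were not run, since the table holds FPKM. Depth limits the 4 serpins with at most 11 reads per group.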

Other observations

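Clade B genes that did not pass the filter on low values were read as counts. Serpinb12 had 9, 14 and 6 reads in the control libraries and 4, 1 and 6 in SAHH-KO. Serpinb7 went the other way, with 2, 0 and 0 reads in control, against 2, 3 and 2 in SAHH-KO. These genes were picked with their values known and were not tested.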
